A study of Mus musculus with 10 samples.

Results

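Imprinting control regions (ICRs) are stretches of DNA whose methylation differs between the parental copies and sets which copy of the neighbouring genes is expressed. Those described here are the 9 classic maternally methylated ICRs of the mouse, named after Peg10, Mest, Peg3, Snrpn, Kcnq1ot1, Plagl1, Grb10, Igf2r and Impact. They were taken as fixed windows of the mm10 genome, set by position, with earlier results of these data known. Within these windows lay 205 of the 1348062 CpG cytosines on chromosomes 1 to 19, X and Y, and none of the 9 windows was empty.

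The data came from reduced representation bisulfite sequencing (RRBS), which reads CpG-rich restriction fragments after bisulfite treatment, in which a cytosine without a methyl group comes out as T. The cells were labelled as prospermatogonia, the male germ cells of the late fetal testis, of F1 mice of the C3H/HeN strain, separated with magnetic beads through the surface antigen Thy1.2. Dams of the control group drank tap water throughout pregnancy, and those of the arsenic group drank tap water with sodium arsenite from mid to late gestation. There were 5 samples in each group, and each was a pool of testes from many fetuses, with a limit on testes from the same dam. No genotype differed between the groups, and a pool gives an average over cells and animals.

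Maternal ICRs are methylated in the egg and stay methylated on the maternal copy in body cells, which therefore carry a methylated and an unmethylated copy. In the germ line the marks of both copies are erased before sex-specific marks are set, and in male germ cells the maternal ICRs are not methylated again. A related group, the paternally methylated ICRs, gains methylation in male germ cells before birth. The comparison asked whether arsenic exposure of the mother altered the level at these regions in the prospermatogonia of the offspring.

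Total CpG calls over the whole table ranged from 44207245 to 66570870 per sample, and arsenic sample 1 was the deepest. Its mean level over all CpGs was 42.1%, against 45.2 to 47.3% in the other 9 samples, so results are given with and without it where it mattered. Every CpG in the table had at least 10 reads in every sample. In the windows the median coverage per sample ran from 11 to 30 reads at Mest and from 34 to 72 reads at Peg10. The CpGs covered a small part of each window, from 1.54% of its CpG cytosines at Mest (7 of 454) to 21.1% at Snrpn (27 of 128), so a window's level here is that of the stretches that were read.

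The stretches that were read are given here as the plus strand of the mm10 reference (RefSeq GRCm38), written 5′ to 3′, for 6 windows, to show where the measured CpGs lie in the stretches compared in the results, with the C and G of each measured CpG in capitals. They come from the reference genome of C57BL/6J, not from the reads. Parts in untranslated exons were left out.

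Plagl1, chr10:13090680-13090787: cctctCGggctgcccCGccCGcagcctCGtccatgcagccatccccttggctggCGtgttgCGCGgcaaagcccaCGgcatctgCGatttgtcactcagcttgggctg
Kcnq1ot1, chr7:143295463-143295623: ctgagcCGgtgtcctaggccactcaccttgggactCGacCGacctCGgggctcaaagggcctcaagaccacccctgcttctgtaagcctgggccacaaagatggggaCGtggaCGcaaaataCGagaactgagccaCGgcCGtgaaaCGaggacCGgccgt
Snrpn, the first stretch, chr7:60004706-60004796: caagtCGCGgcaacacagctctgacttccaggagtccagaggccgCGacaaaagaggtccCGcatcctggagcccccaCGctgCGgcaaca
Peg3, the first stretch, chr7:6731746-6731880: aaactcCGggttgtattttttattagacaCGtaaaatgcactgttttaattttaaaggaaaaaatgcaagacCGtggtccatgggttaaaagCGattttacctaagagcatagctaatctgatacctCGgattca
Peg3, the second stretch, chr7:6732054-6732121: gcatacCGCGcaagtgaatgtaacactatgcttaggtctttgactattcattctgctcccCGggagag
Grb10, the first stretch, chr11:12025634-12025810: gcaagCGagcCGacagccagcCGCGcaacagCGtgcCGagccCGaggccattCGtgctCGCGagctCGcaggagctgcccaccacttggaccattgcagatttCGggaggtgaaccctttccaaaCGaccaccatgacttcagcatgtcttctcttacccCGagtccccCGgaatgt
Grb10, the second stretch, chr11:12026761-12026861: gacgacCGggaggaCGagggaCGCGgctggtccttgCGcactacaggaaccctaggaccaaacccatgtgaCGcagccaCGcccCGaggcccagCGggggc
Igf2r, the first stretch, chr17:12741584-12741756: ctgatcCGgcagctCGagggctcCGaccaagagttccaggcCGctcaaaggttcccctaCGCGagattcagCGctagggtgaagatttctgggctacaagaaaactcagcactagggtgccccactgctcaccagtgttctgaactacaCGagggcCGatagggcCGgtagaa
Igf2r, the second stretch, chr17:12742230-12742373: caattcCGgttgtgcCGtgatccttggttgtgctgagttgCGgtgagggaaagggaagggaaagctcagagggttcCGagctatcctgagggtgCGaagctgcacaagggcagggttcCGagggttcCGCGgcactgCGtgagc

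By the GENCODE M21 annotation, all 24 Peg10 CpGs were in the untranslated part of the exon at the Peg10 start (chromosome 6, 4747355 to 4747490). Of the Mest CpGs, 6 were upstream of the Mest transcripts (30732412 to 30732753) and 1 was in a Mest intron at 30738922. The 14 Peg3 CpGs (chromosome 7, 6731752 to 6732115) were upstream of Peg3 and inside an intron of Usp29. Of the 27 Snrpn CpGs (60004712 to 60005229) 7 were in an untranslated part of a Snrpn exon and the rest in Snrpn introns. The 19 Kcnq1ot1 CpGs (143295469 to 143295617) were in the transcript of this long non-coding RNA, which runs against Kcnq1. The 12 Plagl1 CpGs (chromosome 10, 13090686 to 13090814) straddled the Plagl1 start at 13090788. The 34 Grb10 CpGs (chromosome 11, 12025640 to 12026855), the 27 Igf2r CpGs (chromosome 17, 12741590 to 12742367) and the 41 Impact CpGs (chromosome 18, 12973219 to 12973506) were intronic, and those of Igf2r were also just inside the non-coding RNA Airn, which starts at 12741398.

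By their group means all 9 maternal ICRs were partly methylated, while single pools went as low as 5.67% at Kcnq1ot1. No correction was made for cytosines left unconverted by bisulfite, which weighs most on such low values. The mean level of the control group ranged from 22.1% ± 11.8 at Kcnq1ot1 to 57.2% ± 6.57 at Peg3 (SD, n = 5). Of the 205 member CpGs, 94.6% had a mean level over all samples between 20 and 60%, against 15.97% of all CpGs in the table. None was above 80%, where 24.7% of the table lay, and 0.488% were under 10%, where 34.3% of the table lay. Promoters of housekeeping genes, measured at 5 of 7 genes (Actb, Tbp, Hprt, Sdha and Ppia), had a mean of 3.30% ± 0.639 in control pools and 3.43% ± 1.10 in arsenic pools (SD, n = 5). The group means of all 9 windows were above those of the list. Of the 5 promoters, Actb was the highest, at 7.64 to 14.98% over the samples, which is above the lowest ICR values (5.67% at Kcnq1ot1 in control sample 4 and 6.72% at Plagl1 in control sample 2). In a pool, a share of cells with methylated copies and a partial level in each cell cannot be told apart.

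**Figure D1:**
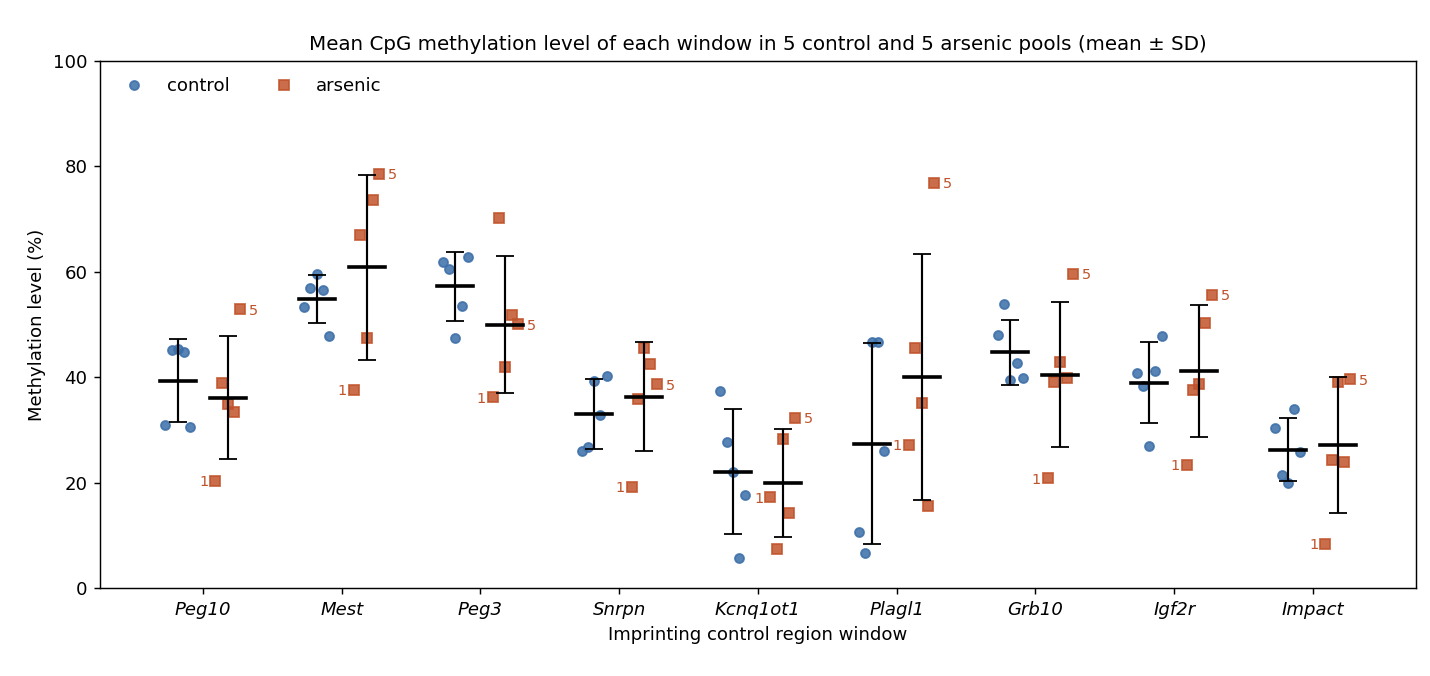
Mean methylation level in percent (vertical axis) of each of the 9 windows (horizontal axis) in the 5 control pools (circles) and the 5 arsenic pools (squares), with the mean as a bar and the SD as whiskers. The numbers mark arsenic samples 1 and 5, which are the lowest of 10 samples in 7 windows and the highest in 6 windows.

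Among ICRs at the start of paternally expressed coding genes, Peg10, a retrotransposon-derived gene needed in the placenta, had levels of 30.9, 45.1, 45.3, 44.8 and 30.5% in control samples 1 to 5. The arsenic samples 1 to 5 had 20.4, 39.0, 35.0, 33.4 and 52.9%. The groups overlapped, with both the lowest and the highest value in the arsenic group. The group means were 39.3% ± 7.90 and 36.1% ± 11.7 (SD, n = 5; exact permutation test, two-sided, p = 0.643).

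Mest, which encodes a protein of the alpha/beta hydrolase fold and is linked to growth, had 53.4, 56.9, 59.6, 56.6 and 47.9% in the control samples. In the arsenic samples it was 37.6, 66.9, 47.4, 73.7 and 78.5%. Its arsenic samples spread widely on both sides of the control group, with means of 54.9% ± 4.49 and 60.8% ± 17.6 (SD, n = 5; exact permutation test, two-sided, p = 0.492). The 7 CpGs did not move alike. The lone intronic CpG at 30738922 was lower in the arsenic group, at 34.4% ± 8.73 against 54.9% ± 10.5 (SD, n = 5) with 10 to 20 reads, while all 6 upstream CpGs had a higher arsenic mean. The intronic CpG had the largest drop among all 205 CpGs, and limma did not call it.

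Peg3, a zinc finger protein gene with a role in growth and maternal care, had 61.9, 60.6, 47.5, 53.4 and 62.8% in the control samples. Arsenic samples 1 to 5 stood at 36.2, 70.2, 41.8, 51.8 and 50.01%. Its means were 57.2% ± 6.57 and 49.99% ± 12.9 (SD, n = 5; exact permutation test, two-sided, p = 0.294). Of the 5 arsenic samples, 1 was above the control mean, and of the 14 CpGs, 3 had a higher mean in the arsenic group.

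Snrpn, which encodes a splicing protein of the locus of the Prader-Willi and Angelman syndromes, had 26.0, 26.8, 39.2, 32.8 and 40.3% in the control samples. In the arsenic pools the levels were 19.2, 35.8, 45.6, 42.5 and 38.6%. The means were 33.0% ± 6.67 and 36.3% ± 10.3 (SD, n = 5; exact permutation test, two-sided, p = 0.556). The lowest and the highest value were both arsenic samples.

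Plagl1, a zinc finger transcription factor gene of the imprinted growth network, differed most between pools. Its levels were 10.6, 6.72, 46.8, 46.6 and 26.0% in the control samples. The arsenic pools had 27.2, 45.6, 35.0, 15.7 and 76.9%. The range of 70.2 points ran from control sample 2 to arsenic sample 5, the groups overlapped, and the means of 27.3% ± 19.07 and 40.1% ± 23.3 (SD, n = 5) were not separated (exact permutation test, two-sided, p = 0.389). All 12 CpGs had a higher arsenic mean, but they lie within 129 b and do not count as separate observations.

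Impact, which encodes a regulator of translation under amino acid shortage, had 30.3, 21.4, 19.9, 34.1 and 25.8% in the control samples. Among the arsenic pools the values were 8.41, 24.3, 39.1, 24.0 and 39.6%. The means of 26.3% ± 5.96 and 27.1% ± 12.9 (SD, n = 5) were the closest of the 9 windows (exact permutation test, two-sided, p = 0.913).

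At the ICRs from which non-coding RNAs start, Kcnq1ot1, the RNA that silences its neighbours on the paternal copy, was the lowest of the 9. It had 37.4, 27.8, 22.0, 5.67 and 17.6% in the control samples. For the arsenic samples they were 17.3, 7.35, 28.3, 14.3 and 32.3%. The means were 22.1% ± 11.8 and 19.9% ± 10.2 (SD, n = 5; exact permutation test, two-sided, p = 0.754).

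The window in Igf2r, the receptor gene that clears the growth factor IGF2, holds the start of Airn. It had 40.7, 38.2, 26.9, 41.1 and 47.9% in the control samples. Its arsenic levels were 23.4, 37.6, 38.8, 50.3 and 55.6%. The groups overlapped, with means of 38.98% ± 7.62 and 41.1% ± 12.5 (SD, n = 5; exact permutation test, two-sided, p = 0.762). Its 27 CpGs were among the most even, with CpG means from 34.2 to 43.7%.

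Grb10, an adaptor that dampens insulin and growth factor signalling, is expressed from either parental copy depending on the tissue. It had 47.9, 54.0, 39.5, 42.6 and 39.8% in the control samples. Arsenic pools 1 to 5 read 20.8, 39.2, 42.9, 39.9 and 59.6%. The means were 44.8% ± 6.15 and 40.5% ± 13.8 (SD, n = 5; exact permutation test, two-sided, p = 0.587).

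In none of the windows was the difference between groups larger in size than the SD of the arsenic pools. It was larger than the SD of the control pools at Mest (difference 5.98 points, SD 4.49) and Peg3 (difference -7.22 points, SD 6.57). The 9 exact tests gave p from 0.294 to 0.913, and the smallest this design allows is 0.00794. The arsenic mean was higher in 5 windows and lower in 4. In a limma fit over 139741 regions, which held each window as a region and all other runs of at least 3 CpG cytosines with gaps of up to 100 b, 0 of the 9 windows were called, and 0% of all regions passed at an adjusted p under 0.05 with a difference of 10 points. The Benjamini-Hochberg adjusted p of the windows in limma ran from 0.795 at Plagl1 to 0.9992 at Impact. At an unadjusted p under 0.05 there were 0 windows, against 7.09% of all regions. The intervals of shifts that the exact test did not reject at the 0.05 level were wide. They ran from -9.0 to 15.6 points at Snrpn, the narrowest, and from -19.3 to 44.8 points at Plagl1, the widest.

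Arsenic sample 1 was below the arsenic mean in every window, so leaving it out raised that mean in all of them. The differences without it were 11.8 points at Mest (p = 0.111), 7.61 points at Snrpn (p = 0.111), 5.47 points at Impact (p = 0.302), 6.58 points at Igf2r (p = 0.254) and 15.96 points at Plagl1 (p = 0.341) in exact permutation tests. At Peg10 and Grb10 the direction turned, to 0.729 and 0.648 points, while Peg3 stood at -3.77 and Kcnq1ot1 at -1.54 points. Leaving out arsenic sample 5 instead lowered the arsenic mean in all windows. The differences were then 1.56 points at Mest, 2.74 at Snrpn, 3.54 at Plagl1, -1.49 at Igf2r and -2.33 at Impact. At Peg10, Peg3, Kcnq1ot1 and Grb10 they were -7.39, -7.23, -5.30 and -9.06 points.

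**Figure D2:**
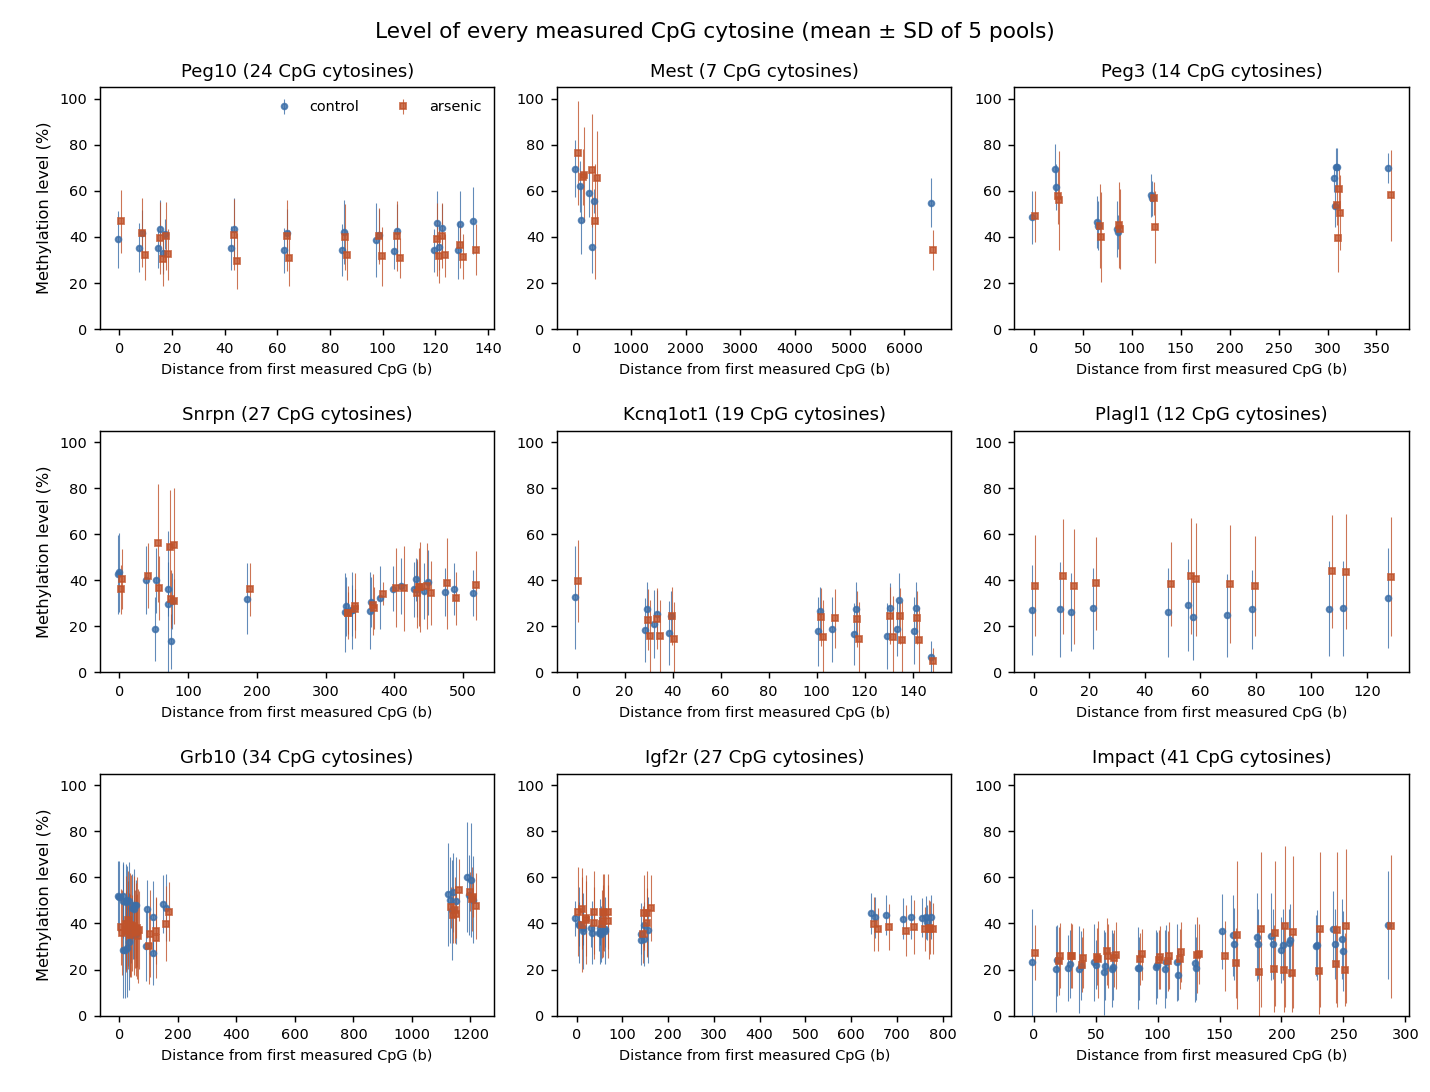
Methylation level in percent (vertical axis) of every measured CpG cytosine against its distance in bases from the first measured CpG of the window (horizontal axis), as mean ± SD of the 5 control pools (circles) and 5 arsenic pools (squares). Levels are even along the Peg10, Plagl1 and Igf2r stretches, and at no CpG are the groups without overlap over the single pools.

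Within a stretch, CpGs of the same pool often had similar levels, while pools differed. At Plagl1 the SD over the 12 CpGs of a pool was 4.06 points in the median, whereas the SD between the 10 pools was 21.2 points. At the second Igf2r stretch these were 1.83 and 9.58 points, and at the second Grb10 stretch 5.45 and 15.4 points. The reverse held at Impact, with 14.9 points over the CpGs of a pool and 9.50 points between pools. At the first Peg3 stretch (11.4 and 10.4 points) and the last Snrpn stretch (8.80 and 8.75 points) both were of similar size. CpGs of a stretch share fragments and are not independent observations.

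The spread between control pools at Plagl1 (SD 19.07 points) was 2.55 times that of binomial sampling at the median coverage of the control pools, and at Kcnq1ot1 1.61 times. The binomial term covers counting error only and holds no spread between animals or pools. It is set at the coverage of a single CpG cytosine, although a window's level averages many. Sites read on both strands numbered 11 at Peg10, 8 at Kcnq1ot1, 19 at Impact and 0 at Plagl1. The ratios are therefore not comparable between these windows. At the other single-stretch windows the ratio was 0.984 at Peg10 and 0.649 at Impact. Among 10628 other regions with a mean level of 20 to 60% and at least 7 CpG cytosines, the median control SD was 6.03 points. Of these regions 99.6% had a lower SD than Plagl1 and 93.6% a lower one than Kcnq1ot1, while the other 7 windows lay between 27.5 and 71.8%. Plagl1 and Kcnq1ot1 thus had the highest SD of the 9 windows among control pools, whereas Kcnq1ot1 had the lowest SD among arsenic pools (10.2 points).

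In 5 windows a pair of stretches with at least 3 CpG cytosines each was read, which allowed the same pool to be compared with itself. At Mest, where the stretches are 149 b apart, the first was higher in 10 of 10 pools, by a median of 10.4 points, and the gap had an SD of 6.74 points over pools, less than that of either stretch (13.4 and 16.8 points). Peg3 behaved alike at a distance of 186 b. Its second stretch was higher in 9 of 10 pools, with a gap SD of 6.73 points beside 10.4 and 11.7 points for the stretches. At these 2 windows a pool that was low in one stretch was low in the other.

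At Grb10, with 963 b between the stretches, the gap had an SD of 18.98 points, more than either stretch (12.4 and 15.4 points). Control sample 2 had 41.7% in the first and 87.96% in the second stretch, the largest gap within a pool. Its depth in the second stretch was low, with 12 of 12 reads methylated at 12026832. Igf2r and Snrpn lay between, with gap SDs of 12.5 and 13.96 points. Arsenic sample 5 had 56.0% in the first and 28.8% in the other Snrpn stretch. The plus-strand CpGs of its first stretch had 14 of 16, 14 of 16 and 11 of 15 methylated reads. At Grb10, Igf2r and Snrpn the level read for a pool thus differed between stretches, and the part of counting error in this was not tested.

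**Figure D3:**
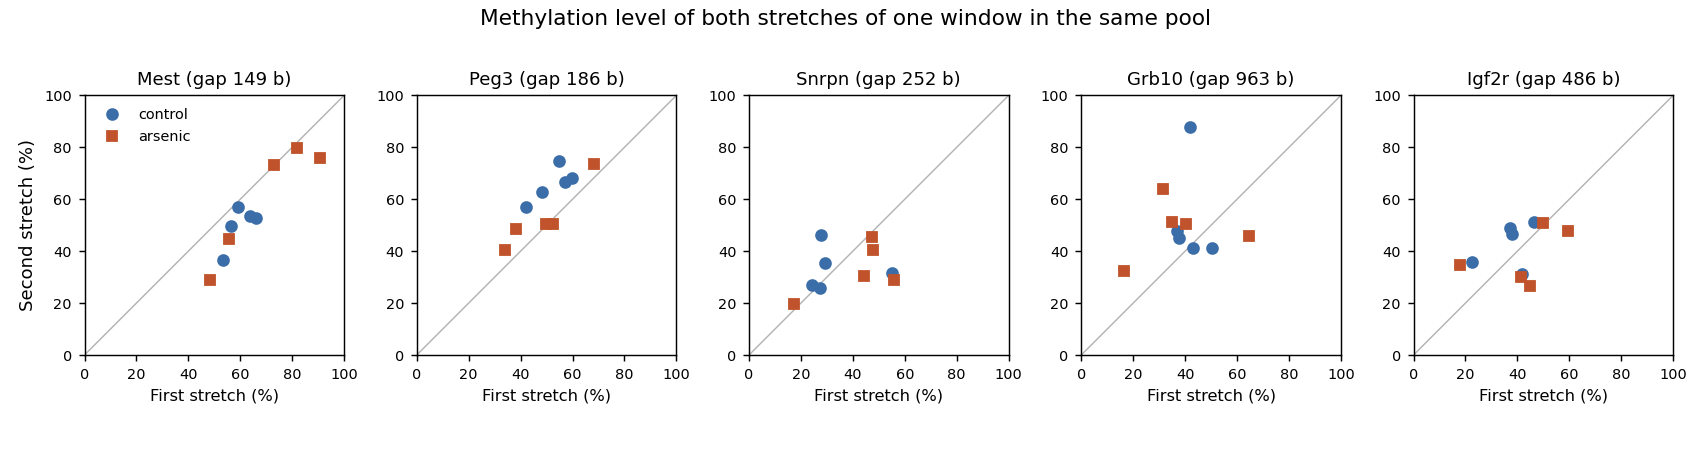
Level in percent of the second stretch (vertical axis) against the first stretch (horizontal axis) of the same window, with a point for each control pool (circles) and arsenic pool (squares) and a grey line of equality. Points of Mest and Peg3 follow a line parallel to equality, and the Grb10 points scatter, with control sample 2 at 41.7% and 87.96%.

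Differentially methylated cytosines (DMCs) were called by logistic regression over all CpGs at the thresholds the study used (q no higher than 0.01, pooled reads differing by 10 points or more). Of the 205 member CpGs 3 or 1.46% were hypomethylated DMCs, beside 1.48% of all CpGs in the table, and 2 or 0.976% were hypermethylated DMCs, beside 0.784%. The shares were close to those of the table. In no member CpG were the groups without overlap (0.693% of the table). Limma, which takes account of the spread between pools, called 0 members and 0% of all CpGs at an adjusted p of at most 0.01, and an overdispersion F test called 0 members and 0% of all CpGs. At an unadjusted p under 0.05, limma gave 7 members or 3.41%, against 6% of the table.

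The hypermethylated DMCs were in the first Snrpn stretch, on the plus strand. At 60004789 the control samples 1 to 5 had 3 of 12, 1 of 11, 3 of 11, 0 of 16 and 1 of 17 methylated reads. The arsenic samples had 7 of 39, 8 of 18, 16 of 20, 6 of 10 and 11 of 15. Arsenic sample 1 lay among the controls, at 17.9%, and the other 4 were at 44.4 to 80%. The means were 13.4% ± 12.1 and 55.1% ± 24.9 (SD, n = 5), the largest rise of all member CpGs. The other hypermethylated DMC was 60004766, at 18.8% ± 14.0 and 56.3% ± 25.7 (SD, n = 5).

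The hypomethylated DMCs were in Kcnq1ot1, on the minus strand, at 143295586, 143295604 and 143295611. At 143295604 the level was 41.7, 40, 35.3, 12.5 and 27.6% in the control samples and 4.08, 7.69, 15.4, 0 and 42.9% in the arsenic samples. Arsenic sample 5 was the highest of all 10 there, and the groups overlapped. The means were 31.4% ± 11.9 and 14.0% ± 17.1 (SD, n = 5) at 10 to 52 reads. None of the hypomethylated DMCs was called without arsenic sample 1, and 17 member CpGs were hypomethylated DMCs without arsenic sample 5. The shares of all CpGs in the table called hypomethylated in these fits were 1.11% and 1.39%.

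Each of the 5 DMCs was called on one strand only, although the opposite cytosine of the same CpG was also in the table. The partner of 60004789 had 30.9% ± 12.2 in the control and 30.8% ± 9.70 in the arsenic group, and that of 60004766 had 39.96% ± 14.1 and 36.5% ± 13.9 (SD, n = 5). For the Kcnq1ot1 DMCs the partners differed in the opposite direction, by 6.34, 5.47 and 5.58 points (arsenic minus control). For example, the partner of 143295604 had 19.02% ± 12.1 and 24.5% ± 11.99 (SD, n = 5) at 26 to 81 reads. Over the 68 CpGs of the windows read on both strands, the median gap between the strands of a pool ran from 9.53 points at Igf2r to 17.8 points at Impact.

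Single CpGs stood apart from their neighbours in a few places. In Kcnq1ot1 the plus-strand CpG at 143295617 had a mean of 5.80% over all samples, the lowest of all 205, and that at 143295469, the opposite end of the stretch, had 36.1%. The highest was 73.1% at 30732412 in Mest, whose lowest was 41.2% at 30732729. In Peg10 the CpG means lay between 35.4% at 4747484 and 42.9% at 4747355, and in Plagl1 between 31.6% at 13090756 and 36.8% at 13090814. They lay between 42.4% at 6731819 and 65.6% at 6732062 in Peg3, between 26.0% at 60005042 and 42.02% at 60004784 in Snrpn, and between 30.2% at 12025737 and 56.9% at 12026832 in Grb10. In Igf2r the lowest was at 12741733 and the highest at 12741590, and in Impact they were 21.1% at 12973257 and 38.997% at 12973506.

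The largest differences of single CpGs in the other windows, as arsenic minus control, were drops of -14.6 points at 4747476 in Peg10, -19.95 points at 6732063 in Peg3, -15.6 points at 12025645 in Grb10, -15.4 points at 12973400 in Impact, -6.49 points at 60004712 in Snrpn and -5.28 points at 12742270 in Igf2r. The largest rises were 19.6 points at 30732524 in Mest, 16.2 points at 13090744 in Plagl1, 12.9 points at 12025665 in Grb10, 11.2 points at 12741741 in Igf2r, 10.9 points at 12973470 in Impact, 8.92 points at 143295599 in Kcnq1ot1, 7.80 points at 4747355 in Peg10 and 1.65 points at 6731838 in Peg3. These are extremes of each window. None of the 205 CpGs passed limma with adjustment over all CpGs, where the smallest adjusted p was 0.830.

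The motif TGCCGC is bound, when methylated, by ZFP57, the zinc finger protein that keeps imprints through early development. It was searched on both strands (TGCCGC and GCGGCA). It occurred 3 to 14 times in each of the 9 windows, and 9 of the 205 measured CpG cytosines (4.39%) lay in it, beside 0.895% of all CpGs in the table. Of the 14 stretches with at least 3 CpG cytosines 5 held the motif, beside 4.54% of 100917 other stretches of the same length range (56 to 288 b). The Snrpn DMC at 60004789 lay in a match that runs past the end of the measured stretch. In Snrpn the 5 cytosines in the motif had a mean level of 35.6% over all samples and the others 34.5%. In Impact the values were 24.1% for 2 cytosines and 26.8% for the others, so the level inside the motif was close to that around it. A match is only a match of letters.

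Few CpGs were read in the 10 kb on either side of the windows. To the right of Grb10, 61 CpGs had a mean of 2.49% over all samples, far below the 42.6% of the ICR itself. To the right of Peg10, 27 CpGs had 72.1%, and to the right of Mest 11 CpGs had 87.2%, both above their ICR. The ICR levels were thus not those of the sequence to the right at these 3 loci, and to the left of them no CpG was read. Each of the remaining sides held 7 CpGs or fewer.

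The paternally methylated ICRs were read at few CpGs. In the sequence 2 to 5 kb upstream of H19, 4 CpGs had 76.1% ± 5.10 in the control and 61.2% ± 14.1 in the arsenic group. In that 10 to 16 kb upstream of Meg3, 3 CpGs had 69.9% ± 9.93 and 63.3% ± 4.81. In that 25 to 40 kb upstream of Rasgrf1, 8 CpGs had 46.96% ± 5.23 and 39.7% ± 11.02 (SD, n = 5). By the control means the H19 and Meg3 regions stood above all 9 maternal ICRs, and the Rasgrf1 region stood among them. In control samples 2 and 5 the Meg3 region, at 58.9 and 59.5%, was below Peg3, at 60.6 and 62.8%. No test was made of these differences.

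The same pools were at the ends of the order in most windows. Arsenic sample 1 was the lowest of the 10 samples in 7 of the 9 windows, the exceptions being Kcnq1ot1 and Plagl1, and arsenic sample 5 the highest in 6, the exceptions being Peg3, Snrpn and Kcnq1ot1. Among the 10628 other regions at 20 to 60% with at least 7 CpG cytosines, arsenic sample 1 was the lowest in 35.3% and arsenic sample 5 the highest in 29.1%. Arsenic sample 1 was also the lowest upstream of H19, Meg3 and Rasgrf1, at 36.8, 57.96 and 27.1%. Arsenic sample 5 was the highest at none of these paternally methylated regions. The median over the 9 windows was 20.8% in arsenic sample 1 and 52.9% in arsenic sample 5, against 37.4 to 42.6% in the other 8 samples.

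Germ line genes whose promoters carry methylation in body cells but not in germ cells served as a check of the cell label. Of 14 listed genes 9 had CpGs in the table, and they averaged 58.4% ± 3.54 in control pools and 60.9% ± 10.6 in arsenic pools (SD, n = 5; two-sided exact permutation test, p = 0.635). The control means of the genes ran from 38.4% at Dazl to 67.6% at Ddx4, and none of the 9 was at or near 0. On this list the levels were above those its definition gives for germ cells, and what this means for the cell label was not tested. The study took its sorted fraction to be mostly prospermatogonia, from marker gene expression in real-time PCR and a principal component analysis of methylation. Neither was analysed here. The list stood at 45.5% in arsenic sample 1 and 72.8% in arsenic sample 5, the lowest and the highest of all samples, as in the median of the maternal ICRs. The genes were not alike. Arsenic sample 1 was the lowest only at Ddx4, Mael, Sycp1 and Tex101. Arsenic sample 5 was the highest only at Dazl, Tex101, Slc25a31, Hormad1 and Asz1, and had 56.8% at Ddx4. The share of body cells in each pool was not measured here, and its part in the ICR levels was not tested.

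**Figure D4:**
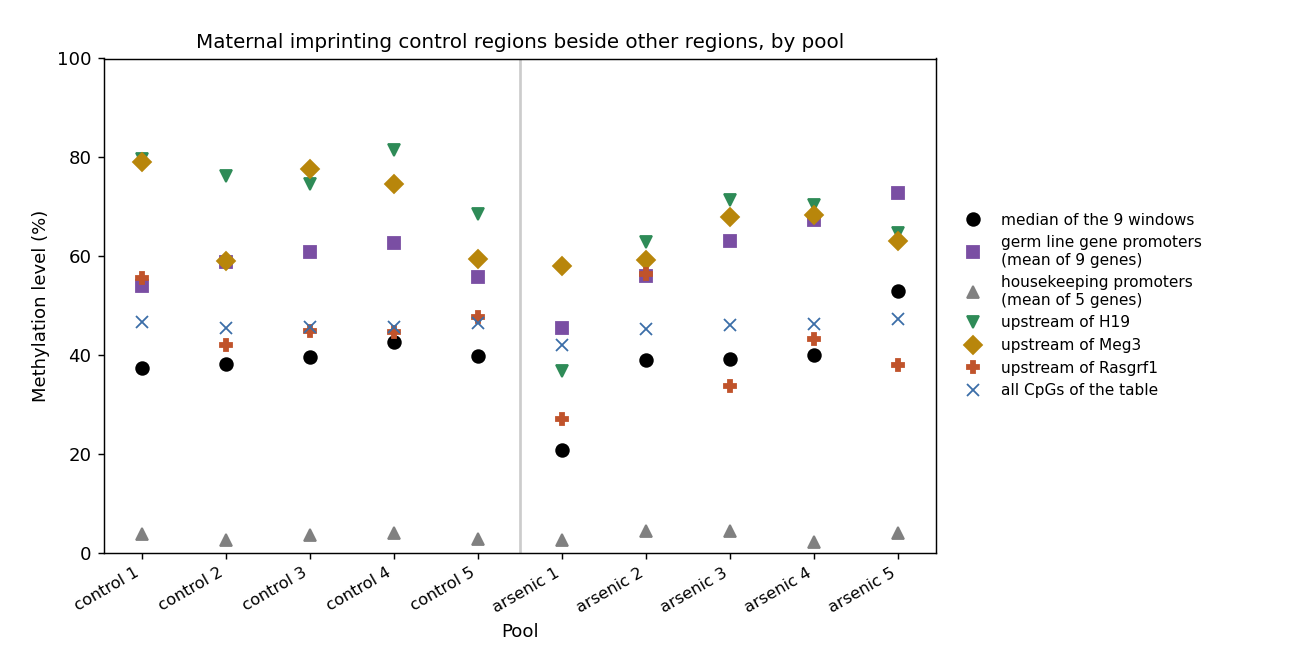
Methylation level in percent (vertical axis) by pool (horizontal axis) of the median of the 9 windows, the mean of 9 germ line and of 5 housekeeping gene promoters, the sequence upstream of H19, Meg3 and Rasgrf1, and all CpGs of the table. The windows and the germ line promoters are lowest in arsenic sample 1 (20.8% and 45.5%) and highest in arsenic sample 5 (52.9% and 72.8%), and the housekeeping promoters stay under 5% in every pool.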

How the data were processed

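RRBS libraries of 10 pools were made and sequenced by the authors, who also left out an arsenic pool with fewer reads. According to the submitters' processing notes, Trim Galore 0.6.5, Bismark 0.22.3 and methylKit 1.22.0 were used with the mm10 genome. The deposited table lists each strand of a CpG apart. Handling of PCR duplicates and overlapping mates is not given in the sources used here. The deposited values are raw counts of methylated and unmethylated reads per CpG cytosine, with a coverage of at least 10 in every sample. No column was normalized. Depth per sample was 44207245 to 66570870 CpG calls.

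Methylated reads were divided by coverage to give a CpG's level in percent, and that of a window the unweighted mean of its CpGs, per sample. Samples were grouped by title, and columns were assigned by library name. The difference of group means was set against all 252 assignments of the samples (exact permutation test, two-sided). Logistic regression, an overdispersion F test and limma on log2((methylated + 1)/(unmethylated + 1)) were fitted across all 1348062 CpGs, and limma across all 139741 regions, with Benjamini-Hochberg adjustment over all features. The fits were tested on simulated data. Sequences and CpG positions were read from GRCm38, which all member CpGs matched. Strain differences between C3H and the C57BL/6J reference were not analysed here. Alternatives were another coverage minimum, merged strands, thinned reads, weighted levels, the central part of each window, other tests and each sample left out. The windows and lists were chosen with earlier results of these data known. All 9 windows were named, with the extreme CpGs of each and all DMCs. The exact tests, limma and the F test set the difference between groups against the spread between pools. Logistic regression takes reads as independent, so its q-values leave that spread out. Python 3.11.15, R 4.3.3 and limma 3.58.1 were used.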

Additional observations from a re-analysis of the deposited data

Results flagged for a closer look

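In tests of 30 groups of 5 samples for a sample far from the others, 1 was found, where chance gives about 1 in 20 groups. Upstream of H19, arsenic sample 1 had a level of 36.8%, while the other 4 arsenic samples had 62.8 to 71.3% (4 CpGs). The cause was not tested.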

How the results depend on the processing

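Of 153 alternative values of the 9 window differences, 135 kept their direction, 18 turned it, and none had an exact permutation p under 0.05 (smallest 0.0556). The cause of the turns was not tested. With a coverage of at least 30 the difference was 5.34 points at Peg10, -0.505 at Snrpn and -4.67 at Igf2r, and with at least 20 it was -0.222 at Snrpn and 5.75 at Kcnq1ot1. With reads thinned to 10 it was 1.26 points at Kcnq1ot1 and -0.829 at Impact. Leaving out each sample in turn gave -7.39 to 0.729 points at Peg10, 1.56 to 11.8 at Mest, -12.3 to -3.77 at Peg3, 0.9995 to 7.61 at Snrpn, -6.31 to 1.64 at Kcnq1ot1, 3.54 to 18.8 at Plagl1, -9.06 to 0.648 at Grb10, -1.49 to 6.58 at Igf2r and -2.33 to 5.47 at Impact. Direction turned without arsenic sample 1 at Peg10 and Grb10, without control sample 1 or arsenic sample 2 at Kcnq1ot1, without control sample 3 or arsenic samples 4 or 5 at Igf2r, and without control samples 2 or 3 or arsenic samples 3 or 5 at Impact. Limma called 0 windows under every alternative.

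Hypomethylated and hypermethylated member DMCs fell to 0 each with the overdispersion F test, with limma per CpG, and with limma and the replicate block. They were also 0 at a coverage of at least 20, which could not retest them. Each of these DMCs had a lowest coverage of 10 reads and was left out there. At a difference of at least 20 points 1 hypomethylated and 2 hypermethylated DMCs were left, and the share of all CpGs called there was not computed. Without each sample in turn there were 0 to 17 hypomethylated and 1 to 6 hypermethylated DMCs, with 0 and 6 without arsenic sample 1 (1.11% and 1.35% of the table) and 17 and 1 without arsenic sample 5 (1.39% and 0.438% of the table). The replicate number as a block changed no call on windows (the Peg3 difference of -7.22 points had p = 0.3125 in exact sign flips). Same-numbered samples share only a number (correlations of their deviations from -0.0149 to 0.0367), and only those numbered 5 correlated best with each other. Mest and Peg3 gave no value at a coverage of at least 20 or in the central part of the window, and Mest, Peg3, Kcnq1ot1, Plagl1 and Impact none at 30. Median depth at Mest was 11 to 30 reads per sample.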
